A study of Mus musculus with 4 samples.

Results

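A set of 10 microRNAs (miRNAs) known for neuronal differentiation or neuronal activity was followed through small RNA libraries of the early mouse telencephalon. They were found by name, and for each mature name the precursor entry with the highest total over the 4 libraries was kept, which gave an entry for 10 of 10 names among 1059 mature miRNAs. Of these, 6 are arms that usually act as the guide, namely mmu-miR-7a-5p, mmu-miR-7b-5p, mmu-miR-129-5p, mmu-miR-138-5p, mmu-miR-218-5p and mmu-miR-219a-5p. The other 4 are mmu-miR-124-5p, mmu-miR-132-5p, mmu-miR-137-5p and mmu-miR-212-5p. The first 3 of those are usual passenger arms, whose 3p partner is the one best known to act on targets, and of miR-212 both arms are in use.

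A miRNA is cut as a duplex from a hairpin precursor by the enzyme Dicer, and one strand, the guide, is kept in an Argonaute protein while the passenger strand is mostly degraded. The guide finds target transcripts through its seed, a short stretch near its 5′ end. In the brain, miR-124 is the classical miRNA of differentiating neurons, and miR-132 and miR-212 are induced by neuronal activity.

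The study deleted Dicer early in the forebrain and profiled small RNA in the rostral-most telencephalic primordium at E11.5 (E, embryonic day), with 2 libraries per genotype. Mutants were RxCre-DicerF/F embryos (called Rx-Dicer), which carry floxed Dicer alleles (Dicer1tm1Bdh/J, kept on C57BL/6) and the Rx3-Cre transgene (kept on CD1). Controls are described as DicerF/F in the design and carry the genotype label WT, so whether their Dicer alleles were floxed rests on the design text. Cre is driven by regulatory sequences of Rax, also called Rx, a gene of the anterior neural plate and the eye field, and recombines more strongly in rostral and ventral telencephalon than in the neocortex. The deletion is aimed at cells with a history of Rax activity, so vessels, blood and other cells of the dissected tissue keep the gene. The number of embryos behind each library is not given in the sources used here. Nothing in the labels says that libraries of one genotype came from separate embryos. The paper speaks of control littermates and, for its mRNA heat maps, of independent biological replicates. For the small RNA libraries, p-values measure the spread between libraries, which may be technical. Dicer1 mRNA is not measured by small RNA sequencing, and the genotype could therefore not be checked here.

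The Rx-Dicer libraries held 651031 and 516517 counts in all, and the control libraries 1299067 and 1133553. A count of 0 allows a share of up to 0.000461% and 0.000581% in the Rx-Dicer libraries and 0.000231% and 0.000265% in the controls, and this limit, like the intervals on shares given here, covers counting error only, because reads were not tagged as single molecules. Levels are given as scaled CPM, that is, counts per 1000000 of the library total after correction by TMM, a scaling that centres most miRNAs between libraries. The TMM factors were 1.17 and 1.14 in the Rx-Dicer libraries and 0.926 and 0.814 in the controls. All levels are relative within a library, so a loss shared by most miRNAs would not be seen.

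The tissue label was checked with mmu-miR-9-5p, the main miRNA of forebrain progenitors. It took 28.2% and 29.4% of the counts in the mutants and 31.5% and 42.6% in the controls. In scaled CPM it stood at 240963 and 259155 against 339853 and 524056. It was thus the leading miRNA in all 4 libraries, at lower levels in both Rx-Dicer libraries. The paper reads reduced miR-9 as a sign of lost Dicer function, so in the mutants its level is not a check of tissue alone.

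The 2 Rx-Dicer libraries differed from each other in miRNAs of other tissues. The 5 eye and sensory miRNAs that were looked up, led by mmu-miR-182-5p, summed to 1424 and 14156 scaled CPM in Rx-Dicer libraries 1 and 2 and to 3456 and 7055 in control libraries 1 and 2, and none was at 0 throughout. These sums are mostly mmu-miR-182-5p and mmu-miR-183-5p, and the list did not move as one. Like these, mmu-miR-96-5p was higher in library 2 of each genotype, at 9.20 and 39.2 scaled CPM in the mutants and 8.31 and 44.5 in the controls. mmu-miR-204-5p was alike in the mutants, at 88.1 and 81.8 scaled CPM, and higher in both controls, at 135.5 and 155, and mmu-miR-211-5p stood at 10.5 and 10.2 against 9.14 and 9.76. The 4 miRNAs of surface epithelium, led by mmu-miR-205-5p, summed to 235 and 808 in the Rx-Dicer libraries and 200 and 427 in the controls, with mmu-miR-203-5p at 0 in every library. mmu-miR-200a-5p and mmu-miR-200b-5p of this list were lowest in Rx-Dicer library 1 (10.5 and 5.26 scaled CPM) and highest in Rx-Dicer library 2 (18.2 and 26.6 times as high), while mmu-miR-205-5p was 2.17 times as high. By these sums, Rx-Dicer library 2 was the highest and its partner the lowest for the eye list, and control library 2 stood above control library 1 for both lists. For the 5 mesenchymal miRNAs, led by mmu-miR-199a-5p, it was control library 1 that stood apart, at 4443 scaled CPM against 11072 in control library 2 and 11917 and 11348 in the Rx-Dicer libraries.

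Blood and vessel miRNAs differed less. The 3 red cell miRNAs, led by mmu-miR-486a-5p, summed to 7595 and 8504 scaled CPM in the Rx-Dicer libraries and to 5737 and 6362 in the controls, higher in both mutants, but mmu-miR-144-5p of this list overlapped, at 18.4 and 35.8 against 19.1 and 41.2. White blood cell miRNAs (3 entries, led by mmu-miR-142a-5p) summed to 128.8 and 136 against 88.1 and 139, with mmu-miR-142a-5p and mmu-miR-223-5p higher in both mutants and mmu-miR-150-5p lower in both. mmu-miR-126a-5p of endothelium stood at 431 and 244 against 253 and 403. Of the 3 muscle entries, mmu-miR-1a-1-5p and mmu-miR-206-5p were at 0 in every library, with 1 count of mmu-miR-133a-5p in Rx-Dicer library 1. These are passenger arms whose 3p guides were not analysed here, as is mmu-miR-203-5p of the epithelium, so their zeros do not show that those tissues were absent. Whether these differences come from the cells dissected or from miRNA levels within cells was not tested. Their part in the values of the neuronal miRNAs was not tested either.

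The 10 neuronal miRNAs together took 2.19% (95% Wilson interval 2.15 to 2.23) and 1.38% (1.35 to 1.41) of the counts in the mutants and 2.01% (1.98 to 2.03) and 1.64% (1.61 to 1.66) in the controls. The mutant library 1 had the highest share and mutant library 2 the lowest, so the genotypes overlapped on this scale. With mmu-miR-9-5p left out of the totals, the shares were 3.05% and 1.96% against 2.93% and 2.85%, with the libraries in the same order. After TMM scaling the sums were 18738 and 12166 scaled CPM against 21670 and 20119, with both mutants below both controls. Most of each sum was mmu-miR-7a-5p, with 80.6% and 81.1% in the Rx-Dicer libraries and 83.4% and 81.4% in the controls. Without it the other 9 miRNAs summed to 3636 and 2293 scaled CPM in the mutants and 3594 and 3743 in the controls, and the genotypes overlapped again.

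By mean level in the controls the order was mmu-miR-7a-5p (17226 ± 1201 scaled CPM, SD, n = 2), mmu-miR-218-5p (1390 ± 284), mmu-miR-129-5p (1041 ± 131), mmu-miR-7b-5p (708 ± 6.07), mmu-miR-124-5p (328 ± 43.8), mmu-miR-219a-5p (75.8 ± 0.188), mmu-miR-212-5p (55.5 ± 10.4), mmu-miR-138-5p (45.2 ± 0.465), mmu-miR-132-5p (14.3 ± 3.32) and mmu-miR-137-5p (10.7 ± 5.98). These are levels per miRNA and not per base, but the mature RNAs are of similar length (21 to 24 bases), and the 9 with a length in the reference kept this order when divided by it. Within the controls, the library ranges of neighbours in this order did not meet, except for mmu-miR-132-5p and mmu-miR-137-5p. Over all 4 libraries the ranges of more neighbours met, and clear steps remained only below mmu-miR-7a-5p, mmu-miR-124-5p and mmu-miR-138-5p. Ligation and amplification differ between small RNA sequences, so an order of counts need not be an order of molecules.

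**Figure D1:**
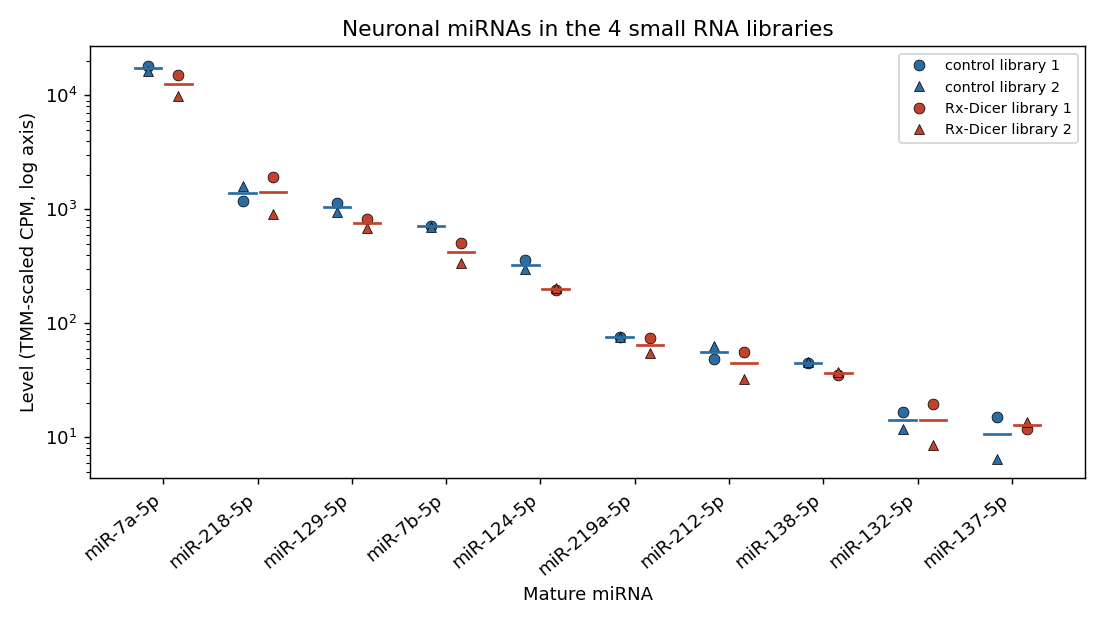
Level of each of the 10 miRNAs (x axis) in TMM-scaled CPM on a log axis (y axis), with a point for each library, blue for control and red for Rx-Dicer, circles for library 1 and triangles for library 2, and short lines at the mean of the 2 libraries. mmu-miR-7a-5p lies far above the rest at 9873 to 18076, and mmu-miR-132-5p and mmu-miR-137-5p lie lowest.

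To ask whether the deletion of Dicer lowered these miRNAs by E11.5, the genotypes were compared by edgeR's quasi-likelihood test over the 274 miRNAs that reached 10 counts in 2 or more libraries, with Benjamini-Hochberg adjustment over all 274. Of the 10 neuronal miRNAs, 9 passed the count minimum, and 0 of the 9 reached an adjusted p of 0.05, against 7 of 274 (2.55%) in either direction and, since 0 were called higher, likewise 7 of 274 (2.55%) called lower. DESeq2's Wald test on the same miRNAs called 0 of the 9, against 11 of 274 (4.01%). Without adjustment, 2 of the 9 were under 0.05 by edgeR, mmu-miR-124-5p and mmu-miR-7b-5p, against 26 of 274 (9.49%), and 2 of the 9 by DESeq2, against 23 of 274 (8.39%). The median log2 fold change (Rx-Dicer over control) was −0.31 for the 9 and 0.04 for all 274. With total counts alone these medians were 0.09 and 0.44, and the median of the 9 was −0.68 without Rx-Dicer library 1 and −0.18 without Rx-Dicer library 2. The median width of the 95% interval was 1.57 on the log2 scale for the 9 and 1.60 for all 274. In bulk tissue, a lower level from fewer cells of a type and one from less RNA per cell cannot be told apart.

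Both Rx-Dicer libraries lay below both controls for 6 of the 9 (mmu-miR-124-5p, mmu-miR-7a-5p, mmu-miR-7b-5p, mmu-miR-129-5p, mmu-miR-138-5p and mmu-miR-219a-5p), against 67 of 274 miRNAs (24.5%). Both lay above both controls for 0 of the 9, against 49 of 274 (17.9%). The libraries overlapped for the other 3 of the 9, mmu-miR-218-5p, mmu-miR-132-5p and mmu-miR-212-5p. This count rests on the scaling, since by total counts alone, on which the 274 miRNAs have a median log2 fold change of 0.44, only mmu-miR-124-5p kept its genotypes apart, against 23 of 274 (8.39%) lower and 133 (48.5%) higher. With mmu-miR-9-5p left out of the totals, it was 4 of the 9 (mmu-miR-124-5p, mmu-miR-7b-5p, mmu-miR-129-5p and mmu-miR-138-5p), against 44 of 274 (16.1%) lower and 99 (36.1%) higher. These 2 settings were chosen for this count after seeing the data.

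**Figure D2:**
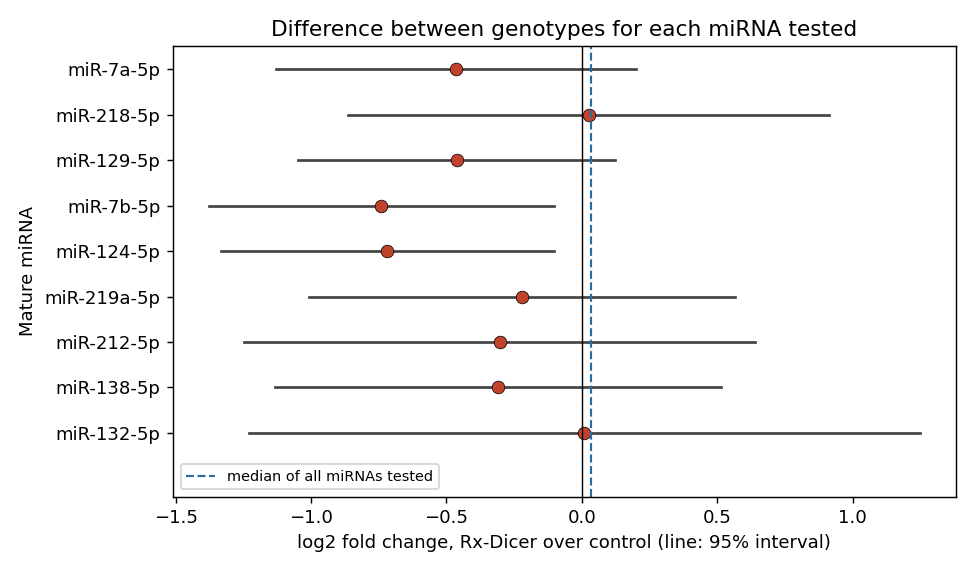
Log2 fold change of Rx-Dicer over control (x axis) from edgeR's quasi-likelihood fit for the 9 miRNAs tested (y axis, ordered by control level), with lines for the 95% interval, a solid line at 0 and a dashed line at the median of all 274 miRNAs tested. On this TMM scale 7 points lie below 0, of which mmu-miR-138-5p, mmu-miR-219a-5p and mmu-miR-212-5p move above it with total counts alone, and the intervals of mmu-miR-7b-5p and mmu-miR-124-5p do not reach 0.

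Among the guide arms, the miR-7 family was the most abundant. miR-7 restrains growth factor signalling and is enriched in neurons and endocrine cells. The mature sequences of both forms are shown because the results compare them, with the seed (bases 2 to 8) in capitals.
mmu-miR-7a-5p: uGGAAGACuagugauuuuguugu
mmu-miR-7b-5p: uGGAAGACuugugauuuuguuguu
They share the seed and differ at 1 of the 23 bases that can be compared, A10U, with positions counted from 1 at the 5′ end of mmu-miR-7a-5p. Sequences and positions here and further on are from RefSeq (GRCm38.p6), in which 9 of the 10 miRNAs had a mature sequence. The genes that overlap the hairpins, with their exons and introns, are from the GENCODE annotation. mmu-miR-7a-5p comes from Mir7-1 (chr13:58392779-58392886, minus strand), in an intron of Hnrnpk, and from Mir7-2 (chr7:78888277-78888373, plus strand), which overlaps no other gene. mmu-miR-7b-5p comes from Mir7b (chr17:56242988-56243098, plus strand), also outside other genes. A read that fits both forms may have been counted on each, and how many did was not measured.

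mmu-miR-7a-5p had 11489 and 5790 counts in the mutants and 21750 and 15105 in the controls, or 15102 and 9873 against 18076 and 16377 scaled CPM. Both mutant libraries were below both controls, but mutant library 1 lay closer to the controls than to mutant library 2. The log2 fold change was −0.46 (SE 0.28, 95% interval −1.13 to 0.20), which did not pass edgeR's quasi-likelihood test (Benjamini-Hochberg adjusted p = 0.603). It was −0.80 without Rx-Dicer library 1, −0.18 without Rx-Dicer library 2 and −0.06 with total counts alone.

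mmu-miR-7b-5p had 388 and 197 counts in the mutants and 857 and 649 in the controls, which scaled to 510 and 336 against 712 and 704 CPM. The control libraries were nearly equal, the mutants lower, and the genotypes did not overlap. Its log2 fold change of −0.74 (SE 0.27, 95% interval −1.38 to −0.10) had an unadjusted p of 0.0281 in edgeR's quasi-likelihood test and a Benjamini-Hochberg adjusted p of 0.385. The value was −1.07 without Rx-Dicer library 1, −0.46 without Rx-Dicer library 2 and −0.33 with total counts alone. Within a library, where no scaling enters, the count of mmu-miR-7a-5p was 29.6 and 29.4 times that of mmu-miR-7b-5p in the mutants and 25.4 and 23.3 times in the controls. The ratio was higher in both mutants than in both controls, a difference that was given no test.

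mmu-miR-129-5p, a guide linked to excitability of neurons, had 624 and 405 counts in the mutants and 1364 and 875 in the controls. On the TMM scale this was 820 and 691 against 1134 and 949 CPM, with both mutants below both controls and a similar spread within each genotype. The log2 fold change was −0.46 (SE 0.25, 95% interval −1.05 to 0.12), with a Benjamini-Hochberg adjusted p of 0.574 in edgeR's quasi-likelihood test. Without control library 1 this was −0.29, and with total counts alone −0.06. Its hairpins are Mir129-1 (chr6:29022619-29022691, plus strand), in an exon of the noncoding gene Gm3294, and Mir129-2 (chr2:94241364-94241453, minus strand), in an intron of the noncoding gene Mir670hg. The 2 precursor entries of this miRNA differed by 1 count in 1 library.

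mmu-miR-138-5p, which acts at dendritic spines, had 27 and 22 counts in the mutants and 54 and 42 in the controls. These small counts scaled to 35.5 and 37.5 against 44.9 and 45.5 CPM, so the libraries of a genotype lay close together and the genotypes apart. The 95% interval of the log2 fold change (−0.31, SE 0.35) ran from −1.13 to 0.51, and the Benjamini-Hochberg adjusted p of edgeR's quasi-likelihood test was 0.804. By total counts alone the log2 fold change was 0.09.

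mmu-miR-219a-5p is best known from oligodendrocyte differentiation, which follows later in development, and is also found in neurons. It had 57 and 32 counts in the mutants and 91 and 70 in the controls, which is 74.9 and 54.6 against 75.6 and 75.9 scaled CPM. The control libraries were almost the same, and mutant library 1 lay so little below them that the genotypes barely kept apart. The log2 fold change was −0.22 (SE 0.34, 95% interval −1.01 to 0.57), with a Benjamini-Hochberg adjusted p of 0.856 in edgeR's quasi-likelihood test. It came close to 0 without Rx-Dicer library 2, at −0.0039, was −0.47 without Rx-Dicer library 1, and turned to 0.19 with total counts alone.

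The precursor entries of mmu-miR-219a-5p were far apart, although the mature sequence is the same in both hairpins. One entry held the 57, 32, 91 and 70 counts above, and the other 2, 3, 2 and 2, which is 3.60% of the first in total. The hairpins are Mir219a-1 (chr17:34024983-34025092, minus strand), in an exon of the noncoding gene Gm26940, and Mir219a-2 (chr2:29845631-29845727, minus strand). The stretches around the mature arm are shown because any reads that could tell the copies apart must reach into them, with the mature arm in capitals.
Mir219a-1: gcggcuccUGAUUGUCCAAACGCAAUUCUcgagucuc
Mir219a-2: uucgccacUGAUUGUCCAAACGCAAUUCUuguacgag
They share 1 base directly before the arm and 0 directly after it. The entries are given by precursor identifiers that were not paired with these hairpins here, so which of them gave the reads is not stated. Each hairpin has a miRNA gene on the opposite strand. mmu-miR-219c-5p, opposite Mir219a-1, had 6 and 5 counts in the mutants and 7 and 18 in the controls, and mmu-miR-219b-5p, opposite Mir219a-2, had 1 count, in Rx-Dicer library 2.

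The other duplicated guides gave closer entries. The second entry held 98.8% of the counts of the first for mmu-miR-7a-5p, 89.3% for mmu-miR-218-5p and 60.7% for mmu-miR-138-5p. For mmu-miR-138-5p the lower entry had 15 and 14 counts in the mutants and 28 and 31 in the controls. Its hairpins are Mir138-1 (chr9:122682876-122682974, plus strand), in an exon of the pseudogene Gm47135, and Mir138-2 (chr8:94324311-94324381, plus strand), in an exon of the noncoding gene C78859.

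mmu-miR-218-5p, a guide of motor neurons and other projection neurons, lies in introns of the axon guidance genes Slit2 (Mir218-1, chr5:48223942-48224051, plus strand) and Slit3 (Mir218-2, chr11:35616816-35616925, plus strand). It had 1455 and 537 counts in the mutants and 1431 and 1467 in the controls, or 1913 and 916 against 1189 and 1590 scaled CPM. The mutant libraries held both the highest and the lowest value, with the controls between them. The log2 fold change was 0.03 (SE 0.38, 95% interval −0.86 to 0.91), with a Benjamini-Hochberg adjusted p of 0.990 in edgeR's quasi-likelihood test. This fold change was −0.60 without Rx-Dicer library 1, 0.47 without Rx-Dicer library 2 and 0.45 with total counts alone. The level in Rx-Dicer library 2 was 0.479 times that in library 1, whereas mmu-miR-182-5p and mmu-miR-183-5p of the eye list, though not mmu-miR-204-5p or mmu-miR-211-5p, were 10.3 and 11.1 times as high in library 2. mmu-miR-96-5p of the eye list was also higher in library 2, as were mmu-miR-200a-5p, mmu-miR-200b-5p and mmu-miR-205-5p of the epithelial list. Any tie between these and mmu-miR-218-5p was not tested. Of the controls, library 2 was higher for mmu-miR-218-5p (1.34 times) and for the eye pair (2.36 and 1.83 times), so the pairs did not move alike.

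Other members also differed between the mutant libraries. The level in Rx-Dicer library 2 was 0.654 times that in library 1 for mmu-miR-7a-5p, 0.659 times for mmu-miR-7b-5p, 0.573 times for mmu-miR-212-5p and 0.432 times for mmu-miR-132-5p. For mmu-miR-219a-5p it was 0.728 times, for mmu-miR-129-5p 0.842 times, for mmu-miR-124-5p 1.05 times and for mmu-miR-138-5p 1.06 times. Of these ratios, those of mmu-miR-124-5p and mmu-miR-138-5p were the nearest to equal levels. The ratios carry no interval for counting error. Some rest on few counts, 27 and 22 in the mutants for mmu-miR-138-5p and 15 and 5 for mmu-miR-132-5p. Of the members whose genotypes overlapped, mmu-miR-218-5p, mmu-miR-212-5p and mmu-miR-132-5p had low ratios and the sparse mmu-miR-137-5p did not, at 1.15 times.

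Among the passenger arms, mmu-miR-124-5p was the most abundant. Its partner mmu-miR-124-3p is the guide, and was not analysed here. The passenger arm had 148 and 120 counts in the mutants and 432 and 274 in the controls, which scaled to 195 and 205 against 359 and 297 CPM. The mutant libraries nearly coincided, and both lay below both controls, with or without the TMM factors. The log2 fold change of −0.72 (SE 0.26, 95% interval −1.33 to −0.10) had an unadjusted p of 0.0276 in edgeR's quasi-likelihood test and a Benjamini-Hochberg adjusted p of 0.385. With total counts alone the log2 fold change was −0.32. By the unadjusted p it ranked at place 19 and mmu-miR-7b-5p at place 20 of the 274 miRNAs. As a share of all counts it was 0.0227% (95% Wilson interval 0.0194 to 0.0267) and 0.0232% (0.0194 to 0.0278) in the mutants and 0.0333% (0.0303 to 0.0365) and 0.0242% (0.0215 to 0.0272) in the controls, so that the share in control library 2 lay within the counting error of the mutants. All 3 of its precursor entries had the same counts but for 1 count in 1 library, so they give 1 measurement and not 3.

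mmu-miR-132-5p and mmu-miR-212-5p come from neighbouring hairpins, Mir212 (chr11:75173388-75173478, plus strand) and Mir132 (chr11:75173682-75173747, plus strand), with 203 bases between them, both in an intron of 1700016P03Rik. Their sequences are given with the 3p arms because family membership differs by arm, again with the seed in capitals.
mmu-miR-132-5p: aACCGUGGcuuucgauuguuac
mmu-miR-212-5p: aCCUUGGCucuagacugcuuacu
mmu-miR-132-3p: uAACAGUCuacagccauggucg
mmu-miR-212-3p: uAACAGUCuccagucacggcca
The 3p arms share the seed AACAGUC, with 5 differences over 22 bases, and the 5p arms do not share one, so the arms counted here are not seed relatives. mmu-miR-212-5p had 43 and 19 counts in the mutants and 58 and 58 in the controls, or 56.5 and 32.4 against 48.2 and 62.9 scaled CPM. Mutant library 2 was the lowest, and mutant library 1 lay between the controls. mmu-miR-132-5p had only 15 and 5 counts in the mutants and 20 and 11 in the controls, or 19.7 and 8.53 against 16.6 and 11.9 scaled CPM, with the mutants at both ends of the range.

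The log2 fold changes were −0.30 (SE 0.40, 95% interval −1.25 to 0.64) for mmu-miR-212-5p and 0.0092 (SE 0.53, 95% interval −1.23 to 1.25) for mmu-miR-132-5p. Adjusted p-values by edgeR's quasi-likelihood test with the Benjamini-Hochberg method were 0.856 and 0.990. Without Rx-Dicer library 1 the log2 fold changes became −0.77 and −0.75, and without Rx-Dicer library 2 they became 0.04 and 0.46. With total counts alone they were 0.11 and 0.40. The count of mmu-miR-212-5p exceeded that of its neighbour in every library, by 2.87 and 3.80 times in the mutants and 2.90 and 5.27 times in the controls, and these ratios overlapped between the genotypes.

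mmu-miR-137-5p, from Mir137 (chr3:118433857-118433929, plus strand) in an exon of the noncoding gene Gm26871, was the rarest and the single one under the count minimum. The sequences of both arms show how far the counted passenger is from the guide, the 3p arm, which promotes neuronal differentiation and was not analysed here.
mmu-miR-137-5p: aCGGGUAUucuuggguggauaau
mmu-miR-137-3p: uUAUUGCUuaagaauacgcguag
It had 9 and 8 counts in the mutants and 18 and 6 in the controls. Scaled means were 12.7 ± 1.28 CPM (SD, n = 2) in the mutants and 10.7 ± 5.98 in the controls, whose spread took in the mutants. At this depth no difference was detectable, and a fit with no count minimum put its log2 fold change at 0.04 (SE 0.53).

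Of 19 names for other arms and other copies of these hairpins, 3 had an entry, namely mmu-miR-219c-5p, mmu-miR-219b-5p and mmu-miR-129b-5p, and 0 reached the count minimum. mmu-miR-129b-5p was at 0 in every library. All 3 entries are 5p arms, and no 3p arm of these hairpins was analysed here. The guides of miR-124, miR-132 and miR-137 are therefore not measured here, and the counts of their passenger arms need not follow them. The seeds of mmu-miR-138-5p, mmu-miR-219a-5p and mmu-miR-129-5p are held by 0 other mature miRNAs of the reference, and that of mmu-miR-218-5p by 1, mmu-miR-7002-3p, which had 0 counts in every library.

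For comparison, 11 progenitor and forebrain miRNAs were all tested, and 1 of the 11 was called lower, mmu-let-7b-5p. Outside this list, its relatives mmu-let-7c-5p, mmu-let-7d-5p, mmu-let-7f-5p, mmu-let-7g-5p and mmu-let-7i-5p were called lower too, so the call is not particular to the list. mmu-let-7b-5p favours the exit of progenitors from the cycle. It stood at 86.8 and 101 scaled CPM in the Rx-Dicer libraries and 898 and 471 in the controls. The log2 fold change was −2.87 (SE 0.37), with a Benjamini-Hochberg adjusted p of 0.0188 in edgeR's quasi-likelihood test and both mutants below both controls. The 7 calls among all 274 miRNAs, of which this is 1, became 0 with total counts alone and fewer with any single library left out. Both mutants lay below both controls for 7 of the 11, which were mmu-miR-9-5p (the most abundant), mmu-let-7b-5p, mmu-miR-125a-5p, mmu-miR-125b-5p, mmu-miR-181a-5p, mmu-miR-181b-5p and mmu-miR-181c-5p, against 67 of 274 miRNAs (24.5%), and above them for 0, against 49 of 274 (17.9%). With total counts alone, a setting chosen for the lists after seeing the data, this held for mmu-miR-9-5p and mmu-let-7b-5p only, 2 of the 11, against 23 of 274 (8.39%), and without mmu-miR-9-5p in the totals for 4 of the 11, against 44 of 274 (16.1%). The median log2 fold change of the 11 was −0.43, next to −0.31 for the 9 neuronal miRNAs and 0.04 for all 274.

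Of 16 other neuronal and synaptic miRNAs, 10 passed the count minimum and 0 of the 10 were called by edgeR's quasi-likelihood test, against 7 of 274 (2.55%). Without adjustment, 3 of the 10 were under 0.05 (mmu-miR-149-5p, mmu-miR-383-5p and mmu-miR-592-5p), against 26 of 274 (9.49%). Both mutants lay below both controls for 6 of the 10, which were these 3, mmu-miR-26a-5p (the most abundant), mmu-miR-26b-5p and mmu-miR-488-5p, against 67 of 274 (24.5%). With total counts alone it was the former 3 of the 10, against 23 of 274 (8.39%), and without mmu-miR-9-5p in the totals 5 of the 10, against 44 of 274 (16.1%). For mmu-miR-134-5p, a miRNA of dendrites, both mutants were above both controls, at 6329 and 5847 against 4858 and 4741 scaled CPM, which is 1 of the 10, against 49 of 274 (17.9%). With mmu-miR-485-5p it was 2 of the 10 by total counts alone, against 133 of 274 (48.5%), and 2 of the 10 without mmu-miR-9-5p in the totals, against 99 of 274 (36.1%). The median log2 fold change of the 10 was −0.38, against 0.04 for all 274, and mmu-miR-29a-5p was at 0 in every library.

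The miRNAs outside these 10 whose levels followed mmu-miR-7a-5p most closely were sought among 265 tested miRNAs, by the Euclidean distance of centred log2 scaled CPM over the 4 libraries. They were mmu-miR-221-5p (distance 0.249), mmu-miR-669o-5p (0.263) and mmu-miR-1188-5p (0.271). Each was rare, with 20 to 60, 13 to 44 and 17 to 52 counts per library, so their likeness to the most abundant of the neuronal miRNAs rests on few counts and only 4 libraries.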

How the data were processed

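Small RNA libraries (NEBNext kit, single-end reads of 75 bases) were made from 4 samples. With miRDeep2 and the references mm10 and miRBase 22, the authors assigned reads to mature miRNAs and deposited unnormalized counts for each pair of mature miRNA and precursor. The miRDeep2 version and mismatch settings are not given in the sources used here. A read that fits several precursors can be counted on each. The tables used here hold 1211 entries for 1059 mature miRNAs.

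For each mature miRNA the entry with the highest total was kept, and the 274 that reached 10 counts in 2 or more libraries were tested with edgeR 4.0.16 (quasi-likelihood F test, TMM, limma 3.58.1, R 4.3.3), genotype as the sole factor and Benjamini-Hochberg adjustment at 0.05. The code was tested on simulated data. Shares carry 95% Wilson intervals (scipy 1.17.1, Python 3.11.15). Named miRNAs were the 10 members, and of each list (progenitor and forebrain, other neuronal and synaptic, same family or other arm, and markers of eye, surface epithelium, mesenchyme, red cells, white blood cells, endothelium, muscle and forebrain) the most abundant, those called and those whose genotypes did not overlap; of markers, the leading ones, those at 0 and those cited for a difference between libraries. The members and lists were chosen with earlier results of these data known. Alternatives were RLE, upper-quartile and total-count scaling, DESeq2 1.42.0, other count minimums, other handling of precursor entries, the replicate number as a block, and each library left out.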

Additional observations from a re-analysis of the deposited data

How the results depend on the processing

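The neuronal miRNAs had 0 calls in each of the 13 alternatives, with 0 to 3 under an unadjusted p of 0.05 by edgeR or DESeq2. miRNAs called lower among all tested (7 here) numbered 4 with RLE size factors, 3 with upper-quartile scaling, 0 with total counts only (but 10 lower and 51 higher at p under 0.05 without adjustment), 11 with DESeq2's Wald test, 14 with no count minimum, 11 with all precursor entries and 0 to 5 with a library left out, where the lone library of a genotype is assumed to vary like the other genotype. None was called higher by edgeR or DESeq2 in these settings. Members with both mutants below both controls were 1 by total counts and 4 without mmu-miR-9-5p in the totals, both chosen after seeing the data, against 6 by TMM. The replicate numbers gave no sign of pairing (r = 0.08 across 274 miRNAs, which are not independent), and with the replicate block 0 were called lower (20 at an unadjusted p under 0.05).

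Of 113 log2 fold changes of members under these alternatives, 96 kept their sign and 17 did not. With total counts only they became 0.095 for mmu-miR-138-5p, 0.19 for mmu-miR-219a-5p and 0.11 for mmu-miR-212-5p. For mmu-miR-218-5p they became −0.15 with no count minimum, −0.0035 with at least 100 counts, −0.022 with summed entries, −0.023 with all entries and −0.052 with the replicate block. For mmu-miR-132-5p they became −0.15 with no minimum, −0.013 with summed entries, −0.038 with all entries and −0.039 with the replicate block. With a library left out, the range was −0.60 to 0.47 for mmu-miR-218-5p, −0.75 to 0.46 for mmu-miR-132-5p and −0.77 to 0.043 for mmu-miR-212-5p. The cause of these reversals was not tested. mmu-miR-124-5p (−0.89 to −0.32), mmu-miR-7b-5p (−1.07 to −0.33), mmu-miR-7a-5p (−0.80 to −0.06) and mmu-miR-129-5p (−0.63 to −0.06) were negative in all 13. The median of all tested miRNAs moved from 0.04 to 0.44 with total counts only, 0.14 with upper-quartile scaling and −0.14 with no count minimum. mmu-miR-137-5p, with 6 to 18 counts per library, was under the count minimum.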
